A study of Homo sapiens with 11 samples.

Results

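The second day after transduction was examined in IMR32 cells, a human neuroblastoma line with amplified MYCN, by setting the 2 arrays titled t=48 and shMYCN#3 against the 2 arrays titled t=24 and shMYCN#3. These 4 arrays were taken by their titles out of the 11 arrays of the series. The virus of these 4 arrays was a lentivirus carrying a short hairpin RNA directed at MYCN. Beside them stand 1 array at 48 h and 1 array at 24 h of cells transduced with the control hairpin SHC002, which give the change with culture time under the control virus. All cells grew in DMEM with fetal calf serum. The other 5 arrays, which are 2 of cells labelled shMYCN at 72 h, 1 of SHC002 at 72 h and 2 without virus at 0 h, entered the fit to estimate the spread. The letters A and B name the arrays of a pair, and the labels do not say whether A and B were separate cultures. A p-value here therefore reflects the scatter of these arrays alone, part of which may be technical. One cell line and 1 hairpin limit the groups as a model of MYCN loss.

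MYCN is a transcription factor of the MYC family that binds E-box DNA as a dimer with MAX and raises genes of cell growth, ribosome assembly, nucleotide synthesis and the cell cycle. In sympathetic neuroblasts, the cells from which neuroblastoma arises, it is known for keeping cells dividing, while neuronal genes such as those of the cytoskeleton and of axon growth come up as division stops. ID proteins are inhibitors that take E proteins away from the neurogenic factors of the basic helix-loop-helix class.

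The arrays differed little in their technical controls, with 1 exception. Median signals of the 11 arrays lay between 14.9 and 16.7, and the GAPDH control probe sets gave 3' over 5' ratios of 0.97 to 1.07. On array A of the 48 h pair, the probe sets for bacterial poly-A spike RNA were 2.28-fold above the mean of the no virus and SHC002 arrays, where every other array lay between 0.94-fold and 1.29-fold. The standard deviation of the log2 differences within a pair was 0.271 for the 48 h pair, against 0.181 for the 24 h pair. Of the 9 noradrenergic neuroblastoma markers, 8 were measured and 7 lay above the filter on dim genes, and their summed signal was 7313 and 7333 on the 48 h arrays, between the 7117 and 7575 of the 24 h arrays. GATA3, a defining transcription factor of that lineage, gave signals between 3109.6 and 3498.5 over the 6 arrays, whereas TH, the first enzyme of catecholamine synthesis, lay below the filter at 0.6 to 10.6. The 3 endothelial markers summed to 24.6 and 27.2 at 48 h, against 27.0 and 30.7 at 24 h, and the 5 measured leukocyte markers to 51.8 and 57.0, against 49.0 and 53.7. All 4 measured Schwann and glial markers lay below the filter.

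No probe set for the hairpin's target gave a fall that passed the test between the hours. The brightest of 10 MYCN probe sets gave signals of 5241 and 5317 at 48 h, against 5488 and 4567 at 24 h, on the arrays labelled shMYCN, and 5390 at 48 h and 5332 at 24 h on the SHC002 arrays. The 48 h values lay inside the range of the 24 h values (log2 difference 0.08 ± 0.12, limma adjusted p = 0.842 in a fit of all probe sets with 1 gene symbol). The probe set next in brightness read 319 and 624 at 48 h, against 254 and 292 at 24 h, with 520.1 and 406 on the SHC002 arrays of these hours. It was higher on both 48 h arrays and did not pass the test (0.68 ± 0.25, limma adjusted p = 0.244). None of the 10 probe sets passed between the hours, and 4 of them lay above the filter on dim genes. The probe set with 254 and 292 at 24 h lay there below every SHC002 and no virus array (354.8 to 520.1). So did the probe set next below it, with 130.2 and 162.4 at 24 h, against 216.2 to 290.2. It read 183.4 and 354.4 at 48 h (0.75 ± 0.25, limma adjusted p = 0.192). The brightest and the dimmest of these 4 did not lie below all those arrays at 24 h. On the 72 h arrays labelled shMYCN, the probe sets that did gave 650.7 and 795.6 (the brighter) and 338.8 and 404 (the dimmer). Those values lay above every SHC002 and no virus array. Whether such levels check the label was not tested. Directions here therefore rest on the titles, and the arrays are called "labelled shMYCN". Of the 10 tested genes of the MYC network, 1 passed (10.0%, near the 9.78% of all genes). MXI1, an antagonist that competes with MYC proteins for MAX, gave 917 and 927 at 48 h, against 591 and 638 at 24 h (log2 difference 0.57 ± 0.09, limma adjusted p = 0.00349), and its SHC002 signals were 619 at 48 h and 582 at 24 h. The partner MAX, at 700.3 and 1003 at 48 h, against 805 and 802 at 24 h, did not pass (0.06 ± 0.13, limma adjusted p = 0.82). The other members that did not pass were MYCL (0.26 ± 0.14), MXD1 (-0.26 ± 0.13), MXD3 (-0.19 ± 0.17), MNT (0.17 ± 0.11), MLX (-0.24 ± 0.08), MLXIP (-0.23 ± 0.15) and the antisense transcript MYCNOS (0.23 ± 0.14), each as a log2 difference with its standard error.

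Of 11865 genes tested, 1160 (9.78%) differed between 48 h and 24 h on the arrays labelled shMYCN, 551 of them higher at 48 h (4.64%) and 609 lower (5.13%), at a limma adjusted p under 0.05. Most steps were small. At least 1.5-fold changes were found in 162 of the higher and 211 of the lower genes, and at least 2-fold changes in 15 and 16. On all 1160 genes the 48 h arrays lay outside the range of the 24 h arrays, as they did on 3109 genes upward (26.2%) and 2856 genes downward (24.1%) of all tested. In the SHC002 cells no gene passed between the same hours in the same fit, where 521 had an unadjusted p under 0.05 and 1 passed after median scaling of the arrays. With 1 array at each hour, that step had no replicate of its own. The step in SHC002 cells and the step of the cells labelled shMYCN correlated at r = 0.06 across genes, and genes are no replicates. Scatter of single arrays lowers such a correlation, so it cannot show that the steps ran apart. Of the risen genes 54.6% were also higher at 48 h in SHC002 cells, against 47.5% of all genes. Of the fallen genes 61.7% were also lower there, against 52.3% of all genes. The 551 genes that rose had a median step of 0.49 on the log2 scale, against 0.03 in SHC002 cells, and the 609 that fell had -0.52, against -0.04. These genes were picked by their step in the cells labelled shMYCN. The larger medians there were thus fixed beforehand and cannot show that the viruses differed. The difference of steps itself passed in the same direction for 12 of the risen and 17 of the fallen genes. A SHC002 step of at least 50 percent of the shMYCN step, in the same direction, was found for 65 of the 551 risen and 50 of the 609 fallen genes. This was not counted over all genes. Since every array was scaled to the same mean signal, a change in the RNA content of a cell cannot be seen, and fewer cells of a type and less RNA per cell cannot be told apart. The count rested on which arrays were used, with 178 genes without array A of 24 h, 275 without array B of 24 h and 2680 without array B of 48 h, and after median scaling 618 were higher and 462 lower. An exact permutation test of 2 arrays against 2 cannot go below p = 0.333, so single values were tested only in the fit across all genes.

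**Figure D1:**
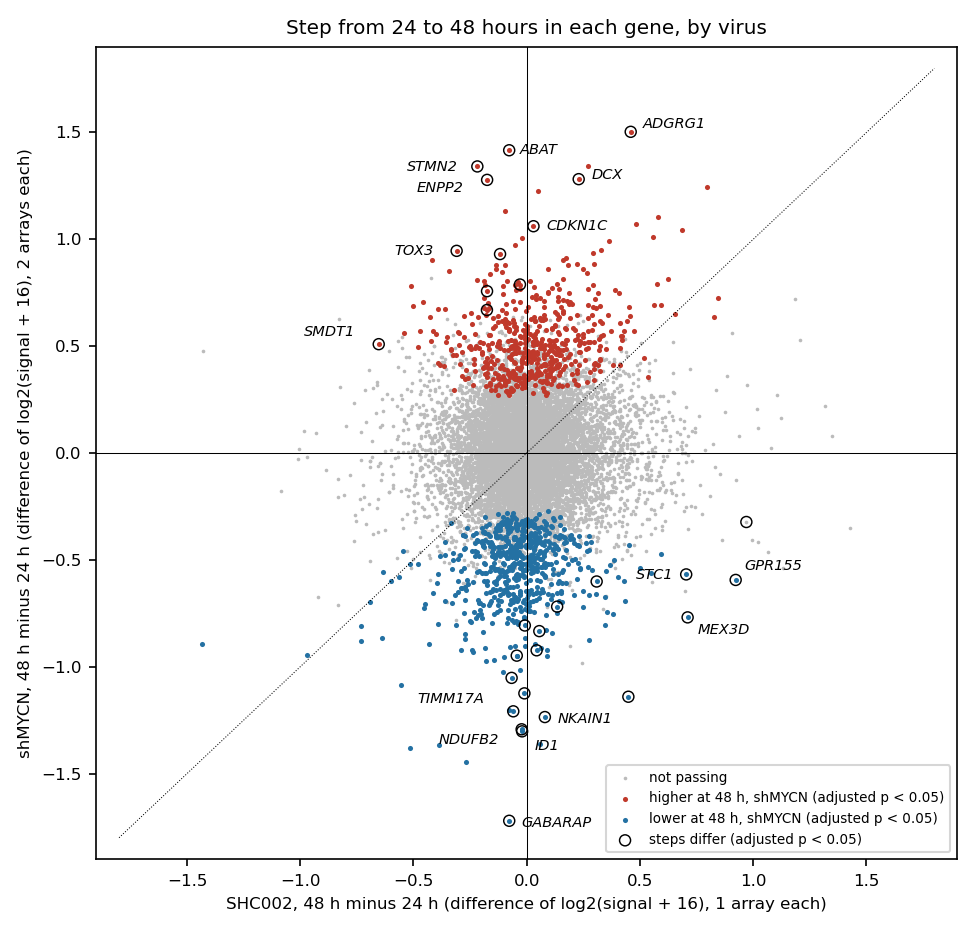
The step from 24 h to 48 h is plotted for each of 11865 genes as a difference of log2(signal + 16), in cells labelled shMYCN (vertical, 2 arrays at each hour) and in SHC002 cells (horizontal, 1 array at each hour). Red and blue points are the 551 higher and 609 lower genes, black rings mark the 30 genes whose steps differed, and the dotted line shows equal steps, from which most coloured points lie away near a SHC002 step of 0. Colours were set by the vertical step, so this position was partly fixed beforehand.

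Genes of the neuronal cytoskeleton and of cell surface signalling and the cell cycle inhibitor CDKN1C were among the 15 largest rises. STMN2, a tubulin-binding protein of growing axons, gave signals of 319 and 344 at 48 h, against 119 and 123 at 24 h, on the arrays labelled shMYCN. In SHC002 cells it gave 67.4 at 48 h and 81.0 at 24 h. Both 48 h arrays stood well above both 24 h arrays, a 2.53-fold rise (log2 difference 1.34 ± 0.11, limma adjusted p = 0.00012), while the SHC002 value at 48 h was below that at 24 h. DCX, the microtubule-binding protein doublecortin of migrating young neurons, gave 1420.0 and 1205 at 48 h, against 510.0 and 548 at 24 h, and SHC002 cells gave 452 at 48 h and 384 at 24 h. The rise of DCX was 2.43-fold (1.28 ± 0.09, limma adjusted p = 7.13e-05), with a smaller step of the same sign in SHC002 cells. ADGRG1, an adhesion G protein-coupled receptor of the developing cortex, had the largest rise of the genes that passed, with 575 and 623 at 48 h, against 186 and 216 at 24 h, and with 196 at 48 h and 138 at 24 h in SHC002 cells. Its step was 1.503 ± 0.105 (limma adjusted p = 6.62e-05) beside 0.46 in SHC002 cells. ABAT, the enzyme that breaks down the transmitter GABA, gave 338 and 263 at 48 h, against 97.7 and 106 at 24 h, and its SHC002 values of 67.5 at 48 h and 72.1 at 24 h lay below all 4. The step of ABAT was 1.42 ± 0.15 (limma adjusted p = 0.000438). ENPP2, or autotaxin, which makes the signalling lipid lysophosphatidic acid, gave 1907 and 1628 at 48 h, against 739 and 696 at 24 h, and 566 at 48 h and 640.4 at 24 h in SHC002 cells. Its groups did not overlap and its step was 1.28 ± 0.14 (limma adjusted p = 0.000673).

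Regulators of division and of cell fate stood beside these. CDKN1C, the cyclin-dependent kinase inhibitor p57, gave 462 and 446 at 48 h, against 203 and 216 at 24 h, and 139.9 at 48 h and 137 at 24 h in SHC002 cells. Its 48 h arrays agreed closely and lay clear of the 24 h arrays (2.09-fold, 1.06 ± 0.09, limma adjusted p = 0.00012). HEY1, a repressor of the basic helix-loop-helix class that answers to Notch, gave 180.5 and 150.5 at 48 h, against 63.9 and 69.2 at 24 h, with 58.0 at 48 h and 63.0 at 24 h in SHC002 cells (1.13 ± 0.14, limma adjusted p = 0.00098). CRABP2, which carries retinoic acid to its receptor, gave 318 and 269.8 at 48 h, against 98.7 and 132 at 24 h, a step of 1.25 ± 0.13 (limma adjusted p = 0.000426). CRABP2 also had a step in SHC002 cells, at 142 at 48 h and 75.3 at 24 h (0.79, not past the test), and the difference between its steps did not pass (0.45 ± 0.22, limma adjusted p = 0.437). ARRDC3, an arrestin-like adaptor, gave 279.5 and 174 at 48 h, against 81.2 and 89.7 at 24 h, so that array A of 48 h stood above array B (1.23 ± 0.18, limma adjusted p = 0.0025). PHLDA1, a protein with a pleckstrin homology domain, gave 873 and 662 at 48 h, against 356 and 351 at 24 h (1.07 ± 0.11), and PMEL, the protein of melanosome fibrils, 383 and 455 at 48 h, against 187 and 214 at 24 h (1.01 ± 0.12). The remaining rises were those of CHODL, a membrane lectin (1.34 ± 0.15), SAG, a visual arrestin (1.10 ± 0.22), ASB16 (1.05 ± 0.20) and PLEKHA6 (1.01 ± 0.17), whose signals at 24 h were all under 20 and whose folds are understated by the added 16. Of these, SAG, ASB16 and PLEKHA6 lost the call without array A of 24 h, at limma adjusted p of 0.111, 0.0966 and 0.0720. At 24 h the mean signals of SAG, ASB16 and PLEKHA6 lay below the filter value of 14.8. They passed the filter through their other arrays, so their rises and their rank are partly set by the filter. ASB16 gave 31.5 and 26.0 at 48 h, and in SHC002 cells 26.1 at 48 h and 10.2 at 24 h (0.68). Over the 15 rises the SHC002 step ranged from -0.22 to 0.79.

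The largest falls held the autophagy gene GABARAP, the mitochondrial genes NDUFB2, TIMM17A and RARS2, and the inhibitors ID1 and ID3. Other members of such lists mostly did not follow. In lysosome and autophagy 3.57% of the tested genes were lower, and in the respiratory chain 5.0%, against 5.13% of all genes. GABARAP, an ATG8 protein that is joined to autophagosome membranes, gave 527 and 583 at 48 h, against 1962 and 1770.5 at 24 h, on the arrays labelled shMYCN. SHC002 cells gave 2989.7 at 48 h and 3155 at 24 h. It was the largest fall of the genes that passed, 3.30-fold lower at 48 h (-1.72 ± 0.09, limma adjusted p = 5.05e-06), and the 24 h arrays already lay below both SHC002 arrays. NDUFB2, a subunit of respiratory complex I, gave 570.4 and 689 at 48 h, against 1585 and 1554 at 24 h, and 2673 at 48 h and 2711 at 24 h in SHC002 cells (-1.30 ± 0.09, limma adjusted p = 6.62e-05). TIMM17A, of the translocase that brings proteins through the inner mitochondrial membrane, gave 760.1 and 669 at 48 h, against 1694 and 1645 at 24 h, and 2388 at 48 h and 2489 at 24 h in SHC002 cells (-1.21 ± 0.10, limma adjusted p = 0.000116). In both, the 24 h pair was tight, both 48 h arrays lay far below it, and the SHC002 values were close to each other. RARS2, the arginyl-tRNA synthetase of mitochondria, gave 120.5 and 118 at 48 h, against 254 and 275 at 24 h (-1.05 ± 0.09, limma adjusted p = 0.000138), and its call was lost when all its probe sets were averaged (-0.34, limma adjusted p = 0.0873). ATP6V1D, a subunit of the proton pump of lysosomes, gave 146 and 137 at 48 h, against 310.3 and 347 at 24 h (-1.12 ± 0.09, limma adjusted p = 0.000131), and 430.4 at 48 h and 434 at 24 h in SHC002 cells.

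ID1 and ID3, inhibitors of basic helix-loop-helix factors, fell together. ID1 gave 408 and 549 at 48 h, against 1256 and 1115 at 24 h, and 1868 at 48 h and 1898 at 24 h in SHC002 cells (-1.29 ± 0.13, limma adjusted p = 0.000294). ID3 gave 42.0 and 59.7 at 48 h, against 162 and 148 at 24 h, and 248 at 48 h and 329 at 24 h in SHC002 cells (-1.36 ± 0.13, limma adjusted p = 0.000294). For both, the 48 h arrays lay below the 24 h arrays, and these below both SHC002 arrays, and the SHC002 step was -0.02 for ID1 and -0.39 for ID3. NKAIN1, a membrane protein that binds the sodium pump, gave 80.4 and 92.3 at 48 h, against 228 and 221 at 24 h (-1.24 ± 0.11, limma adjusted p = 0.000138), and MAF1, which restrains RNA polymerase III, 75.5 and 118 at 48 h, against 227 and 251 at 24 h (-1.20 ± 0.16, limma adjusted p = 0.00151). PRPH, the intermediate filament peripherin of peripheral neurons, gave 25.3 and 28.7 at 48 h, against 67.3 and 83.7 at 24 h, and 75.7 at 48 h and 119 at 24 h in SHC002 cells, where it moved the same way. The fall of PRPH (-1.08 ± 0.21, limma adjusted p = 0.0104) lost its call without array A of 24 h (limma adjusted p = 0.0605), without array B of 24 h (0.103) and with no filter on dim genes (0.0530). The long noncoding RNAs and little-known genes among the falls were LINC01963 (-1.44 ± 0.20), UG0898H09 (-1.14 ± 0.14) and FAM217B (-1.03 ± 0.11). NACA4P (-1.38 ± 0.18) and RPS16P5 (-1.36 ± 0.15) are pseudogenes with near-identical copies, so their values are uncertain. Over the 15 falls the SHC002 step ranged from -0.55 to 0.45. Of 31 further probe sets for 14 of the 30 genes, 26 had the same sign and 16 of these passed the test.

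**Figure D2:**
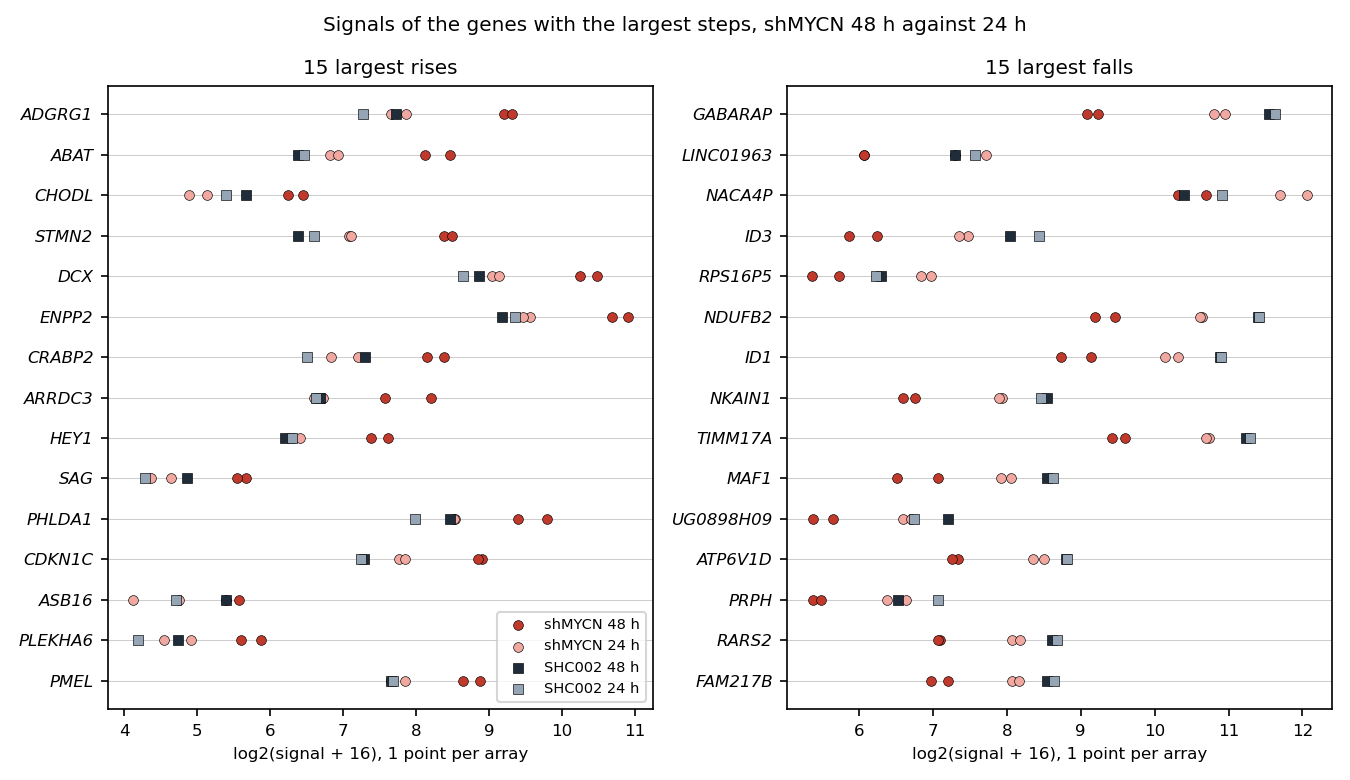
Signals of the 15 largest rises (left) and the 15 largest falls (right) are shown as log2(signal + 16), 1 point for each array. In every gene the dark red points (labelled shMYCN, 48 h) lie apart from the light red points (labelled shMYCN, 24 h), and the squares give the SHC002 arrays of both hours.

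Whether a step differed between the viruses was tested as a difference of steps. It passed for 30 of 11865 genes (0.253%), 12 with a higher and 18 with a lower step in the cells labelled shMYCN, where 1449 had an unadjusted p under 0.05. The largest differences upward were those of STMN2 (1.56 ± 0.19, limma adjusted p = 0.0168), ABAT (1.49 ± 0.26, limma adjusted p = 0.0456) and ENPP2 (1.45 ± 0.25, limma adjusted p = 0.0456). Next came TOX3, a chromatin protein of the HMG-box class, with signals of 279 and 233 at 48 h, against 114 and 136 at 24 h, and of 92.7 at 48 h and 119 at 24 h in SHC002 cells (1.26 ± 0.21, limma adjusted p = 0.0456). In TOX3 the arrays labelled shMYCN rose (0.95) and the SHC002 value was lower at 48 h. SMDT1, a part of the mitochondrial calcium uniporter, gave 993 and 887 at 48 h, against 646 and 663 at 24 h, and 591 at 48 h and 939 at 24 h in SHC002 cells (1.16 ± 0.17, limma adjusted p = 0.0257). The larger share of the SMDT1 difference came from the single SHC002 arrays (-0.65, against 0.51 in the cells labelled shMYCN). Its SHC002 value at 24 h also lay above that at 72 h (493.6) and those without virus (570 and 650.1). DCX, ADGRG1 and CDKN1C also passed, and so did MAP6, which stabilises microtubules (1.05), the adhesion molecule CNTN1 (0.93), SERPINF1, a secreted neurotrophic factor (0.84), and SMIM19 (0.82).

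Downward, GABARAP led (-1.64 ± 0.15, limma adjusted p = 0.0031), followed by UG0898H09 (-1.59 ± 0.23, limma adjusted p = 0.0258). GPR155, a membrane protein, gave 61.2 and 58.1 at 48 h, against 99.1 and 97.2 at 24 h, and 98.5 at 48 h and 44.4 at 24 h in SHC002 cells (-1.52 ± 0.21, limma adjusted p = 0.0257). MEX3D, an RNA-binding protein, gave 60.4 and 86.3 at 48 h, against 134 and 135 at 24 h, and 393 at 48 h and 234 at 24 h in SHC002 cells (-1.48 ± 0.25, limma adjusted p = 0.0456). In both genes the cells labelled shMYCN were lower at 48 h while the single SHC002 array at 48 h was higher than that at 24 h. For GPR155 the SHC002 array of 24 h was the one out of line. SHC002 cells at 72 h gave 111.7 and cells without virus 89.6 and 86.7. NKAIN1 (-1.32 ± 0.18, limma adjusted p = 0.0257), NDUFB2 (-1.28), ID1 (-1.27), TIMM17A (-1.15), ATP6V1D (-1.11) and RARS2 (-0.99) had SHC002 steps within 0.1 of 0. STC1, a secreted hormone induced by low oxygen, gave 178 and 172 at 48 h, against 268 and 266 at 24 h, and 638 at 48 h and 385 at 24 h in SHC002 cells, so that the cells labelled shMYCN were lower and the SHC002 cells higher at 48 h (-1.27 ± 0.15, limma adjusted p = 0.0167). SUSD2 was the 1 gene of the 30 that did not pass in the cells labelled shMYCN alone (-0.32 ± 0.12, limma adjusted p = 0.112), beside a SHC002 step of 0.97. The other 6 were WASF3, which shapes actin (-0.97), the imprinted MEST (-0.91), SOAT1, which stores cholesterol as esters (-0.90), ZDHHC20 (-0.89), MOB1A of the Hippo pathway (-0.85) and LRRC59 (-0.80). The count of 30 was 1 without array A of 24 h, 1 without array B of 24 h, 208 without array A of 48 h and 770 without array B of 48 h. After median scaling 22 were higher and 12 lower. With all probe sets of a gene averaged, 8 of the 30 passed, and with no filter on dim genes or no variance trend, 0 did. The CDKN1C difference was taken on its brightest probe set. There were 2 other bright probe sets of CDKN1C with steps of 0.80 and 0.73 in the cells labelled shMYCN, against 0.63 and 0.48 in SHC002 cells.

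The later hour shows whether the step went on. Among the 551 risen genes, 399 had both 72 h arrays above both 48 h arrays, and among the 609 fallen genes 388 had both below. Over all genes tested, both 72 h arrays lay above both 48 h arrays in 3041 (25.6%) and below in 3005 (25.3%). Of the 15 largest rises and the 15 largest falls, 13 and 10 went on in this way. STMN2 reached 1106 and 932 on the 72 h arrays labelled shMYCN, with 70.3 in SHC002 cells at 72 h. DCX reached 2267 and 2209.5, with 615 in SHC002 cells, and ENPP2 3864 and 2789. ID1 was at 265 and 230.0 at 72 h, with 1047 in SHC002 cells, where it was now lower too. Some falls were small after 48 h. GABARAP was at 404 and 421 at 72 h, against 527 and 583 at 48 h, and RARS2 was at 110.4 and 105, against 120.5 and 118 at 48 h. The pseudogene NACA4P turned back, with 1926 and 2363 at 72 h, against 1634 and 1256 at 48 h. These 72 h arrays share no sample with either hour compared, and the comparison of 72 h with 48 h shares the 48 h arrays with the step described here.

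**Figure D3:**
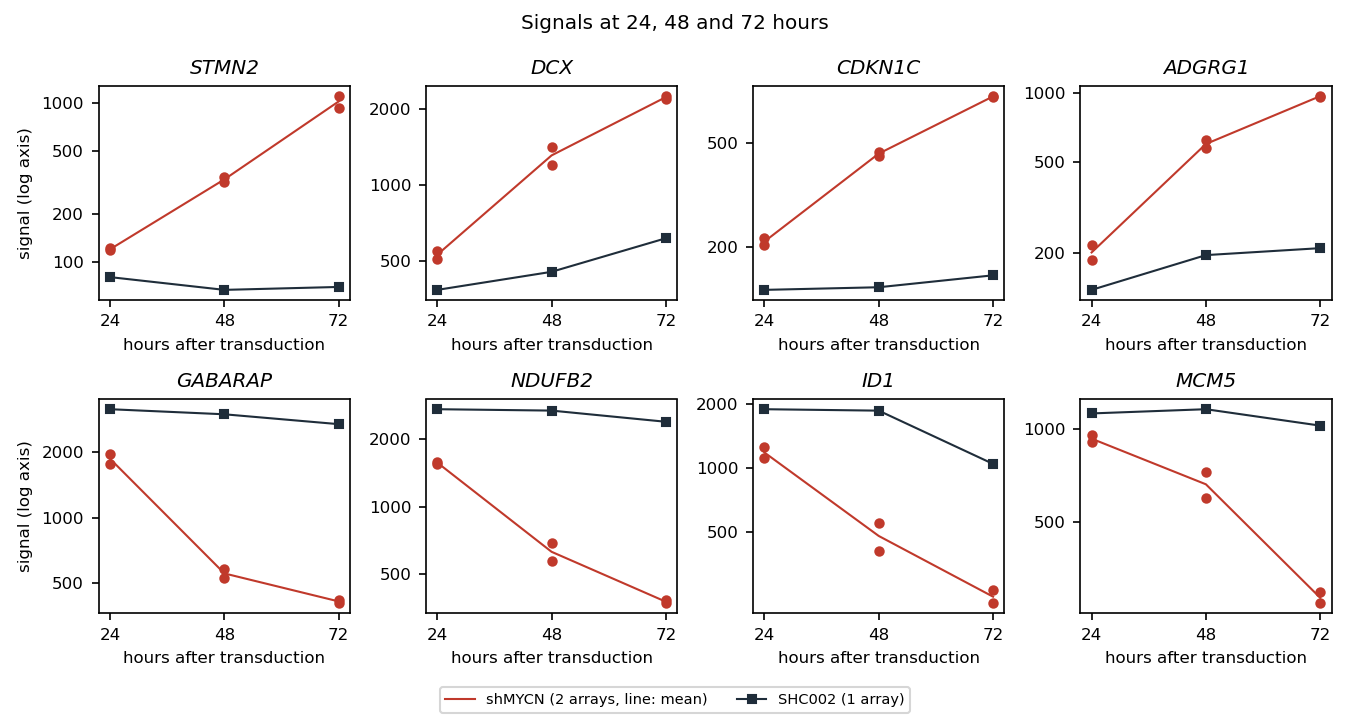
Signals of 8 genes are plotted on a log axis against the hours after transduction, with points for the 2 arrays labelled shMYCN at each hour and a line through their mean (red), and squares for the single SHC002 arrays (black). STMN2, DCX, CDKN1C and ADGRG1 climb at each hour on arrays labelled shMYCN, and GABARAP, NDUFB2, ID1 and MCM5 fall.

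Genes of neuronal differentiation that passed were mostly higher at 48 h. Of 44 tested members of that list, 13 were higher (29.5%, against 4.64% of all genes). This list and those below were chosen with earlier results of these data known. Shares above those of all genes may therefore be partly built in, and no list was tested. Another 3 were lower and 28 did not pass. The median step was 0.26, against -0.04 in SHC002 cells and 0.01 over all genes. Beside STMN2 and DCX the members with the smallest p were the microtubule protein MAP6, with 261 and 277 at 48 h, against 132 and 135 at 24 h (0.93 ± 0.11, limma adjusted p = 0.000692), and the axonal adhesion molecule CNTN1, with 356 and 381 at 48 h, against 222 and 201 at 24 h (0.76 ± 0.09, limma adjusted p = 0.00098). The other 9 that rose, named after their values were seen, were the neuronal enolase ENO2 (0.58), the RNA-binding proteins CELF3 (0.57), CELF4 (0.46) and RBFOX2 (0.33), the dendritic protein MAP2 (0.53), the secretory granule protein SCG3 (0.51), the adhesion molecules CNTNAP2 (0.50) and L1CAM (0.39), and the neurofilament NEFL (0.37). The 3 that fell were PRPH, the microtubule protein MAP1B (-0.66) and DPYSL2, which acts in axon growth (-0.43). The list's calls were 12 higher and 3 lower without array A of 48 h, 14 higher and 3 lower without array B of 48 h, 4 higher and 1 lower without array A of 24 h, and 6 higher and 1 lower without array B of 24 h. The 8 mesenchymal neuroblastoma markers had a summed signal of 4293 and 4298 at 48 h, against 4484 and 4704 at 24 h, and of 5312 and 5364 in SHC002 cells at 48 h and 24 h. Their part in the neuronal result was not tested.

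The basic helix-loop-helix and ID list had members called in both directions. Of 16 tested members 4 were higher (25.0%, against 4.64% of all genes), 3 lower (18.8%, against 5.13% of all genes) and 9 did not pass. The 3 that fell were ID1, ID3 and ID2 (-0.35), while ID4, of the same inhibitor family, rose (0.54). NEUROG2, a neurogenic activator, gave 70.1 and 103 at 48 h, against 29.4 and 45.5 at 24 h, with 52.7 at 48 h and 40.1 at 24 h in SHC002 cells (0.94 ± 0.20, limma adjusted p = 0.0145). HEY1 and the E protein gene TCF3 (0.38) rose as well. Its calls were 2 higher and 3 lower without array A of 48 h, 6 higher and 4 lower without array B of 48 h, 1 higher and 2 lower without array A of 24 h, and 2 higher and 2 lower without array B of 24 h.

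Genes of replication, mitosis and nucleotide synthesis that passed were all lower at 48 h. In the list of DNA replication and the entry into S phase, 0 of 56 genes were higher and 12 lower (21.4%, against 5.13% of all genes), with a median step of -0.17, against 0.02 in SHC002 cells. CCNE2, the cyclin E2 that drives this entry, gave 179.7 and 152 at 48 h, against 259 and 281 at 24 h, and 361 at 48 h and 346 at 24 h in SHC002 cells (-0.66 ± 0.10, limma adjusted p = 0.00308). MCM3, of the helicase loaded at origins, gave 615 and 693 at 48 h, against 905 and 933 at 24 h (-0.48 ± 0.08, limma adjusted p = 0.00546), and CLSPN, the checkpoint adaptor claspin, 49.2 and 63.2 at 48 h, against 95.6 and 102 at 24 h (-0.68 ± 0.13, limma adjusted p = 0.00974). The 24 h arrays of these genes lay above the 48 h arrays and below both SHC002 arrays. E2F2, a transcription factor of S phase genes, also fell (-0.64 ± 0.12), as did MCM5 (-0.48 ± 0.10). Of 51 mitosis genes 8 were lower (15.7%, against 5.13% of all genes) and 0 higher. Among the lower were NCAPH of condensin (-0.57 ± 0.10), the cytokinesis motor KIF23 (-0.51 ± 0.10), the separase gene ESPL1 (-0.59 ± 0.12) and FOXM1, a transcription factor of mitotic genes (-0.48 ± 0.10). FOXM1 gave 434 and 512 at 48 h, against 645 and 683 at 24 h, and 733 at 48 h and 723 at 24 h in SHC002 cells. In nucleotide and polyamine synthesis 5 of 31 genes were lower (16.1%, against 5.13% of all genes) and 0 higher. RRM2, the ribonucleotide reductase subunit, gave 1489 and 1385 at 48 h, against 2210.0 and 2163 at 24 h, and 2658 at 48 h and 2554 at 24 h in SHC002 cells (-0.60 ± 0.08, limma adjusted p = 0.00153). IMPDH2, which commits purines to guanine nucleotides, also fell (-0.56 ± 0.09), with ADSL (-0.45 ± 0.08) and GMPS (-0.30 ± 0.08) of the same synthesis. Of the 10 cell cycle inhibitors and pocket proteins 2 were higher, CDKN1C and CCNG2, a cyclin that accumulates in arrested cells (0.59 ± 0.09), and CDKN1A, the inhibitor p21, did not pass (-0.36 ± 0.12, limma adjusted p = 0.0772). Summed over these 4 lists, calls were 2 higher and 29 lower without array A of 48 h, 9 higher and 38 lower without array B of 48 h, 1 higher and 2 lower without array A of 24 h, and 2 higher and 5 lower without array B of 24 h, against 2 higher and 25 lower with all arrays.

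**Figure D4:**
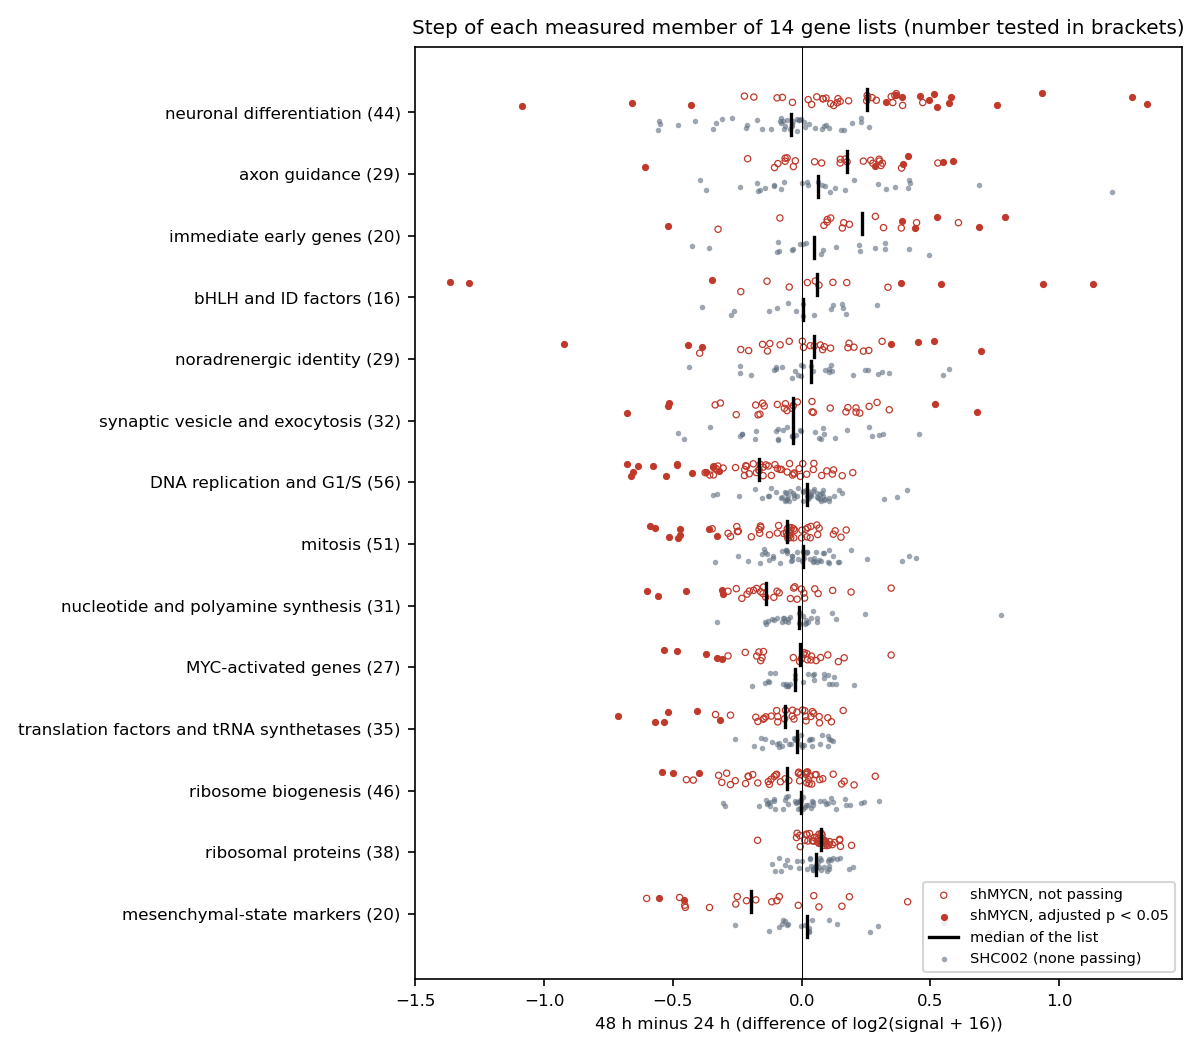
Each point is 1 measured member of a gene list, placed at its difference of log2(signal + 16) between 48 h and 24 h, with cells labelled shMYCN (red) above SHC002 cells (grey) and black bars at the medians. Filled red points passed an adjusted p under 0.05, and the neuronal list lies mostly right of 0 and the replication list mostly left of it in the cells labelled shMYCN.

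Known targets of MYC proteins changed in part. Of 27 MYC-activated genes 5 were lower (18.5%, against 5.13% of all genes) and 0 higher, though the median step was -0.01, against -0.03 in SHC002 cells. The mitochondrial transcription factor TFB2M gave 369 and 359 at 48 h, against 521 and 547 at 24 h (-0.53 ± 0.08, limma adjusted p = 0.00203). MCM5, the glycolytic ENO1 (-0.33 ± 0.09), the serine enzyme SHMT2 (-0.31 ± 0.09, limma adjusted p = 0.0496) and PA2G4 (-0.37) were the others. Of 18 genes known to be repressed by MYC proteins 4 were higher (22.2%, against 4.64% of all genes) and 2 lower (11.1%, against 5.13%), with a median of 0.18, against 0.10 in SHC002 cells. GADD45A, a growth arrest gene, gave 1127 and 1211 at 48 h, against 776 and 734 at 24 h, and 686 at 48 h and 668 at 24 h in SHC002 cells (0.62 ± 0.08, limma adjusted p = 0.00113). CCNG2 gave 737 and 769.9 at 48 h, against 455 and 541 at 24 h (limma adjusted p = 0.00344), and the tetraspanin CD9 went the other way, with 101 and 124 at 48 h, against 196 and 226 at 24 h (-0.83 ± 0.12, limma adjusted p = 0.00199). Summed over both lists, calls were 5 higher and 3 lower without array A of 48 h, 7 higher and 10 lower without array B of 48 h, 2 higher and 2 lower without array A of 24 h, and 3 higher and 2 lower without array B of 24 h.

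Genes of translation that passed were all lower at 48 h. Of 46 ribosome biogenesis genes 3 were lower and 0 higher (6.52%, near the 5.13% of all genes), and of 38 ribosomal protein genes none passed in either direction. NOC4L, which acts on the small subunit, gave 149 and 182 at 48 h, against 241 and 254 at 24 h (-0.54 ± 0.11, limma adjusted p = 0.0131), and LYAR (-0.50 ± 0.14) and PES1 (-0.40 ± 0.11) were the other 2. The ribosomal protein genes had a median step of 0.07, against 0.05 in SHC002 cells, and RPS18, with the smallest p, gave 5178 and 5425 at 48 h, against 5041 and 4257 at 24 h (0.19 ± 0.12, limma adjusted p = 0.328). Of 35 translation factors and tRNA synthetases 6 were lower (17.1%). EIF2S2, a subunit of the factor that brings the initiator tRNA, gave 954 and 928 at 48 h, against 1586 and 1522 at 24 h, and 2415 at 48 h and 2401 at 24 h in SHC002 cells (-0.71 ± 0.08, limma adjusted p = 0.00078). The isoleucyl-tRNA synthetase IARS1 (-0.57 ± 0.09), EIF6 (-0.52 ± 0.08) and EIF3B (-0.54 ± 0.11) fell as well. Of 20 heat shock and chaperonin genes 1 was lower (5.0%, near the 5.13% of all genes), CCT7 (-0.38 ± 0.09). Calls summed over these lists were 0 higher and 9 lower without array A of 48 h, 4 higher and 22 lower without array B of 48 h, 0 higher and 1 lower without array A of 24 h, and 0 higher and 3 lower without array B of 24 h.

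Metabolic lists had 1 to 3 lower members each, counts too small to tell the lists apart. Over all genes 5.13% were lower and 4.64% higher. In the respiratory chain 2 of 40 genes were lower (5.0%), NDUFB2 and COX5B of cytochrome c oxidase, which gave 486 and 506 at 48 h, against 870.1 and 823 at 24 h, and 1693 at 48 h and 1952 at 24 h in SHC002 cells (-0.75 ± 0.08, limma adjusted p = 0.000438). The list's median was -0.01 and its 38 other members did not pass. In glycolysis 3 of 20 genes were lower (15%), PFKM of phosphofructokinase (-0.64 ± 0.09), PDK1, which shuts pyruvate out of mitochondria (-0.42 ± 0.11), and ENO1. The neuronal enolase ENO2 was higher, at 417 and 502 at 48 h, against 271 and 334 at 24 h (0.58 ± 0.12, limma adjusted p = 0.0107). ENO1 gave 2428 and 2541 at 48 h, against 3281 and 2976 at 24 h. The enolases thus moved in opposite directions. Of 18 cholesterol genes 3 were lower (16.7%), HMGCS1 at the head of the pathway, with 314 and 263 at 48 h, against 471 and 517 at 24 h (-0.75 ± 0.10, limma adjusted p = 0.00129), DHCR7 (-0.66 ± 0.11) and LSS (-0.38 ± 0.09). The hypoxia list had 2 higher (9.52%) and 3 lower (14.3%) of 21, among them STC1, P4HA1 (-0.42 ± 0.09) and the stress gene DDIT4, which rose with 512 and 605 at 48 h, against 388 and 394 at 24 h (0.49 ± 0.11, limma adjusted p = 0.0167) and had a like SHC002 step of 0.41. In lysosome and autophagy 1 of 28 was higher and 1 lower (3.57% each). There MAP1LC3B, another ATG8 protein, rose with 476 and 586 at 48 h, against 383 and 422 at 24 h (0.38 ± 0.10, limma adjusted p = 0.0395), opposite to GABARAP, and GABARAPL2 at 1272 and 1320.2 at 48 h, against 1111 and 1102 at 24 h did not pass (0.23 ± 0.07, limma adjusted p = 0.0826). Summed over these 5 lists, calls were 7 higher and 13 lower without array A of 48 h, 7 higher and 27 lower without array B of 48 h, 0 higher and 6 lower without array A of 24 h, and 1 higher and 7 lower without array B of 24 h.

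Lists of stress and death genes had 1 or 2 members higher and 1 to 3 lower, counts too small to be read against the 4.64% higher and 5.13% lower of all genes. Of 34 genes of the integrated stress and unfolded protein responses 2 were higher (5.88%), DDIT4 and TRIB3 (0.51 ± 0.11), and 3 lower (8.82%), among them the secreted factor MANF of the endoplasmic reticulum (-0.47 ± 0.07) and PHGDH, the first enzyme of serine synthesis (-0.52 ± 0.11). Of 22 p53 targets 1 was higher (4.55%) and 2 lower (9.09%), the repair genes POLH (-0.87 ± 0.23) and DDB2 (-0.51 ± 0.14). In the BCL2 family, BCL2L11, the death-promoting BIM, gave 242 and 264 at 48 h, against 152 and 195 at 24 h (0.51 ± 0.13, limma adjusted p = 0.0299). BNIP3 was higher too (0.29 ± 0.08). The survival gene MCL1 gave 993 and 1253 at 48 h, against 1582 and 1474 at 24 h (-0.45 ± 0.11, limma adjusted p = 0.0237), out of 15 tested (13.3% higher, 6.67% lower). Interferon and virus response genes, measured because both hairpins were delivered by virus, had 1 higher (5.88%) and 2 lower (11.8%) of 17. IFI44 gave 577 and 602 at 48 h, against 385 and 399.5 at 24 h, and 451 at 48 h and 321 at 24 h in SHC002 cells (0.57 ± 0.08, limma adjusted p = 0.00189), beside a SHC002 step of 0.47, while IFIT5 (-0.44 ± 0.09) and USP18 (-0.55 ± 0.14) fell. Calls summed over these 4 lists were 5 higher and 7 lower without array A of 48 h, 8 higher and 14 lower without array B of 48 h, 2 higher and 0 lower without array A of 24 h, and 3 higher and 1 lower without array B of 24 h.

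Genes of growth factor signalling and of wiring had members called in both directions. Of 20 immediate early genes and feedback genes 5 were higher (25.0%, against 4.64% of all genes) and 1 lower, with a median of 0.24, against 0.05 in SHC002 cells. SPRY2, an inhibitor of receptor tyrosine kinase signalling, gave 102 and 90.2 at 48 h, against 51.4 and 46.0 at 24 h (0.79 ± 0.15, limma adjusted p = 0.00808), and DUSP6, the phosphatase of ERK, 125 and 117 at 48 h, against 75.3 and 63.0 at 24 h (0.69 ± 0.12, limma adjusted p = 0.00604). The SHC002 step was 0.13 for SPRY2 and 0.32 for DUSP6. The ETS factor ETV5 (0.44 ± 0.10) rose too, beside a SHC002 step of 0.32, and the matrix protein CCN1 fell (-0.52 ± 0.13). Of 29 axon guidance genes 5 were higher (17.2%) and 1 lower (3.45%). The netrin receptors moved apart, UNC5C with 198 and 278 at 48 h, against 145 and 157 at 24 h (0.59 ± 0.14, limma adjusted p = 0.0245) and UNC5B with 434 and 314 at 48 h, against 549.8 and 592 at 24 h (-0.61 ± 0.13, limma adjusted p = 0.0132). The semaphorin receptor PLXNA2 (0.55 ± 0.13) and SEMA6D (0.41 ± 0.09) rose. Synaptic vesicle genes had 2 higher (6.25%) and 3 lower (9.38%, against 5.13% of all genes) of 32, SYT4 rising with 409 and 519 at 48 h, against 274 and 288 at 24 h (0.68 ± 0.11, limma adjusted p = 0.0035) and NSF, the ATPase of membrane fusion, falling with 632 and 712 at 48 h, against 1113 and 1052 at 24 h (-0.68 ± 0.08, limma adjusted p = 0.00109). CPLX1 (-0.52 ± 0.11) and SYN2 (-0.52 ± 0.11) fell too, CPLX1 with a like step in SHC002 cells (-0.48). Summed over these 3 lists, calls were 16 higher and 4 lower without array A of 48 h, 13 higher and 8 lower without array B of 48 h, 1 higher and 1 lower without array A of 24 h, and 1 higher and 1 lower without array B of 24 h.

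Genes of lineage identity changed in part. Of 29 noradrenergic genes 4 were higher (13.8%, against 4.64% of all genes) and 3 lower (10.3%, against 5.13%), with a median of 0.05. SLC6A2, the noradrenaline transporter, gave 137 and 184 at 48 h, against 342 and 291 at 24 h, and 367 at 48 h and 437 at 24 h in SHC002 cells (-0.92 ± 0.13, limma adjusted p = 0.00171). TBX2, a T-box factor, was lower as well (-0.44 ± 0.08), whereas LMO3 (0.70 ± 0.12) and the RNA-binding protein LIN28B, with 918 and 958 at 48 h, against 664 and 640.2 at 24 h (0.51 ± 0.08, limma adjusted p = 0.00349), were higher. Of 20 mesenchymal-state genes 2 were lower (10.0%) and 0 higher, with a median of -0.20, against 0.02 in SHC002 cells. They were SNAI2, a factor of neural crest migration, with 277 and 238 at 48 h, against 371 and 346 at 24 h (-0.46 ± 0.09, limma adjusted p = 0.013), and the Hippo pathway factor YAP1, with 64.5 and 57.8 at 48 h, against 98.5 and 95.9 at 24 h (-0.55 ± 0.13, limma adjusted p = 0.0196). Of 20 matrix genes COL4A1 (-0.41 ± 0.10) and LAMA1 (-0.39 ± 0.11) of basement membranes were lower (10.0%). Calls summed over these 3 lists were 4 higher and 9 lower without array A of 48 h, 9 higher and 14 lower without array B of 48 h, 1 higher and 1 lower without array A of 24 h, and 1 higher and 2 lower without array B of 24 h. The 3 leukocyte and endothelial markers above the filter did not pass, and no Schwann or glial marker lay above it to be tested.

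Some calls among the named genes depended on the probe set chosen. When all probe sets of a gene were averaged, calls between 48 h and 24 h were lost for RARS2, GPR155, MEX3D and GRK6 and for the cell cycle genes CLSPN, E2F2 and ESPL1. They were also lost for TFB2M, ENO1, SHMT2, CD9, PES1, PDK1, P4HA1 and LSS. The same holds for TRIB3, POLH, MCL1, BCL2L11, BNIP3 and USP18, and for CCN1, SEMA6D, LMO3 and COL4A1. Under median scaling, calls were lost for GMPS, SHMT2, PES1, PDK1, DDB2 and LAMA1, and under quantile normalization for LYAR.

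The E-box CACGTG, the site that dimers of MYC proteins and MAX bind best, was searched in the 250 bases before the annotated starts of the tested genes. Its letters read the same on both strands. It was found before 13.3% of the risen genes (59 of 442 with a promoter in the RefSeq table), 12.6% of the fallen genes (62 of 492) and 11.8% of all tested genes (1140 of 9698), shares that lie close together. For 34 genes with the largest steps or differences, promoters on a withheld chromosome were left out, which was not done for the shares above. Of the 34 genes 21 had a promoter that was counted, and 3 of these held the motif. They are printed from the RefSeq table of build GRCh38.p14, 250 bases up to the start on the minus strand, with the motif in capitals, beside that of GABARAP, the largest fall, which has none in this window.
NKAIN1: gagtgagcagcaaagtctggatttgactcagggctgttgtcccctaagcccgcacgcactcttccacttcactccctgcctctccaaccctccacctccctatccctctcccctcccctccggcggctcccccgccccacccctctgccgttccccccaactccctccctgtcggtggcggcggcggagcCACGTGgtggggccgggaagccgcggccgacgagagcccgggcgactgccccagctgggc
MEX3D: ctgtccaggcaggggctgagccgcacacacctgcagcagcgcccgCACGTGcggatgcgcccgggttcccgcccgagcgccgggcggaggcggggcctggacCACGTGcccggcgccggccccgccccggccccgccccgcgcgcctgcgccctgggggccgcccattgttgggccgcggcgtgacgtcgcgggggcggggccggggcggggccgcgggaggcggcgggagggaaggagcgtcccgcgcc
PLEKHA6: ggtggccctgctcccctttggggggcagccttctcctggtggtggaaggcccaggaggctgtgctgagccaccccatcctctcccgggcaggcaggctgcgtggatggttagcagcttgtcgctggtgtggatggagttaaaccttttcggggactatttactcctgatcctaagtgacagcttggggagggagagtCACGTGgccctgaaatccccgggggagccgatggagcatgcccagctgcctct
GABARAP: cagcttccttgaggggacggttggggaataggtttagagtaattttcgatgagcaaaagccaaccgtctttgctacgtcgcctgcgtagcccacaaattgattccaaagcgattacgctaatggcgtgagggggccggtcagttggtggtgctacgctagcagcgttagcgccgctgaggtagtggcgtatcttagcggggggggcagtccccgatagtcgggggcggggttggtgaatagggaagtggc
They lie at chr1:31239888-31240137, chr19:1568326-1568575, chr1:204359930-204360179 and chr17:7242450-7242699. Counted from the start, the motif begins at -60 in NKAIN1, a gene that fell, at -205 and -148 in MEX3D, which fell, and at -53 in PLEKHA6, which rose. A match describes letters in a window and not a bound site.

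The SHC002 arrays held large single differences that did not pass the test. HINT3 gave 229.7 at 48 h and 75.4 at 24 h in SHC002 cells (1.43), ADSS1 34.6 at 48 h and 3.9 at 24 h (1.35) and EPHX2 39.3 at 48 h and 6.2 at 24 h (1.32), each higher at 48 h on 1 array against 1. SEMA5B (1.21) and ZNF414 (1.18) were next. Downward the largest were GRK6, at 59.6 at 48 h and 188 at 24 h (-1.43), APCDD1L-DT (-1.43), PTCRA (-1.09), ZNF382 (-1.01) and IRF8 (-1.01). GRK6, a kinase of G protein-coupled receptors, also fell in the cells labelled shMYCN, with 135 and 103 at 48 h, against 232 and 234 at 24 h (-0.89 ± 0.14, limma adjusted p = 0.00361), and was the only one of these 10 that passed there.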

How the data were processed

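Total RNA of IMR32 cells was measured on 11 one-colour Affymetrix arrays. Deposited by the authors was 1 linear intensity per probe set and array, for 54675 probe sets. The programs MAS5 and GCOS are named, without versions, per the submitters' processing notes. The mean of the middle 96 percent of deposited values was 100 on every array. How background was corrected is not given in the sources used here. Precision is limited by how few arrays there are.

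Of the probe sets, 41097 had 1 gene symbol in the platform annotation, 1801 had several and 11777 none, and 41043 symbols were updated through RefSeq (GRCh38.p14). The 62 control probe sets were left out. The brightest probe set on the log2 scale stood for its gene. A filter removed the dimmest 40 percent of 19775 genes, those with a mean signal below 14.8.

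The package limma 3.58.1 (R 4.3.3) fitted means of 7 groups to log2(signal + 16) of the 11 arrays (eBayes with trend, 4 residual and 7.35 prior degrees of freedom), so folds of dim genes are understated. The spread came from the 4 pairs of arrays, and single SHC002 arrays were assumed to vary like them. All p-values are two-sided and adjusted after Benjamini and Hochberg, with a threshold of 0.05, and errors are standard errors of the fit. Adjustment was across 11865 genes, for the MYCN probe sets across 41091 probe sets, and under an alternative across the genes it kept. The procedure was tested on data simulated with the same spread of a gene in every group. The 48 h pair was wider (standard deviation of log2 differences 0.271, against 0.172 to 0.186 in the other pairs). That test therefore cannot show how the wider pair affected the calls.

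The members and the 30 gene lists (895 genes, 721 tested) were chosen with earlier results of these data known. Lists share genes and are described by counts, with no test of a list. The text names the 15 largest rises and falls whose arrays do not overlap, 5 genes in each direction of the other comparisons, from each list up to 4 members of smallest p, and the whole tested MYC network. Beyond that rule, and after their values were seen, the rest of the 30 genes whose steps differed and further called members of the neuronal, the basic helix-loop-helix and the MYC-activated lists are named. The letters A and B were not taken as pairing arrays, since deviations of same-lettered arrays correlated at -0.05, 0.04 and 0.10. Alternatives were offsets of 1 and 64, quantile and median scaling, other filters, the mean of probe sets, no variance trend, the letter as a block, 6 arrays only, stricter thresholds and leaving out arrays.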

Additional observations from a re-analysis of the deposited data

Results flagged for a closer look

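The 24 h to 48 h step differed between the cells labelled shMYCN and the SHC002 cells in 30 genes, by the test of the difference itself. Among the named genes the differences were downward in GABARAP (-1.64), UG0898H09 (-1.59), GPR155 (-1.52), MEX3D (-1.48), NKAIN1 (-1.32), NDUFB2 (-1.28), STC1 (-1.27), ID1 (-1.27), TIMM17A (-1.15), ATP6V1D (-1.11) and RARS2 (-0.99), all on the log2 scale. They were upward in STMN2 (1.56), ABAT (1.49), ENPP2 (1.45), TOX3 (1.26), SMDT1 (1.16), DCX (1.05), MAP6 (1.05), ADGRG1 (1.04), CDKN1C (1.03) and CNTN1 (0.93). Each rests on 1 SHC002 array at each hour, and without array A or without array B of 24 h a single gene of the 30 passed.

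The probe sets for bacterial poly-A spike RNA, which serve no gene, stood 2.28-fold above the no virus and SHC002 arrays on array A of the 48 h pair. The count of changed genes without that array was 1438, of which 886 were among the 1160, and its part in the results beyond that was not tested.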

How the results depend on the processing

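The count of 1160 changed genes became 591 with no filter on dim genes, 361 with only the 6 arrays of 24 h and 48 h, 345 at a threshold of 0.01 and 373 at 1.5-fold or more. It stayed within 1.5 times under the other alternatives that kept all arrays, from 782 with the mean of all probe sets to 1336 with the letter as a replicate block (1144 shared). Leaving out 1 array gave 178 to 2680. The SHC002 count of 0 became 1 under median scaling and 0 to 4 without 1 array. The 30 differing steps became 19 with the replicate block, 8 with the mean of probe sets, 0 with no filter, 0 with no variance trend, 0 with 6 arrays only (fewer residual degrees of freedom) and 1 at 0.01, and 1 to 770 without 1 array. What caused these changes of count was not tested.

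The 30 genes with the largest steps gave 472 values under the alternatives, of which 463 stayed past the threshold, 9 in 5 genes did not, and 0 changed sign. ZNF382 and the cholesterol gene EBP, which had not passed, turned sign with the mean of probe sets (0.0554 and 0.0159). Without 1 array, the values of genes that had not passed with all arrays spanned 0 for IRF8 (-0.189 to 0.231), ADSS1 (-0.0765 to 0.239), ZNF382 (-0.279 to 0.22), MYCN (-0.0559 to 0.208), MXD3 (-0.41 to 0.0395), MLXIP (-0.536 to 0.0702), PECAM1 (-0.231 to 0.0203), HINT3 (-0.900 to 0.201), MAX (-0.194 to 0.315) and, among the MYCN probe sets in order of brightness, the brightest (-0.0559 to 0.208), the fifth (-0.207 to 0.0964), the sixth (-0.0713 to 0.633), the ninth (-0.17 to 0.0297), the tenth (-2.56e-05 to 0.026). A lone array of a group was then assumed to vary like the other pairs, and depth cannot be given for arrays.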

Other observations

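Gene families picked after their values were seen, and so without a test, gave a few more groups. Of 25 tested dual specificity phosphatases, Sprouty and SPRED genes, feedback inhibitors of growth factor signalling, 6 were higher at 48 h (24.0%, against 4.64% of all genes) and 0 lower in the cells labelled shMYCN, namely SPRY2 (0.79, against 0.13 in SHC002 cells), SPRED3 (0.75, against 0.19), DUSP4 (0.69, against 0.56), DUSP6 (0.69, against 0.32), DUSP10 (0.44, against 0.26) and SPRED2 (0.41, against 0.32). All 6 were thus higher at 48 h in SHC002 cells as well, and no difference of steps passed (limma adjusted p of 0.318 to 0.847). The family median was 0.09, against 0.08 in SHC002 cells. Among 32 kinesins 3 were higher (9.38%) and 2 lower (6.25%, against 5.13% of all genes). The transport motors KIF5A (0.56), KIF3B (0.48) and KIF3C (0.41) were higher and the mitotic motors KIF23 (-0.51) and KIF4A (-0.47) lower. Of 33 potassium channel genes 3 were higher (9.09%), KCNMA1 (0.84) and KCNMB4 (0.45) of the calcium-activated channel and the channel-binding KCNIP1 (0.80), and 0 lower. KCNIP1 gave 27.3 and 20.5 at 48 h, against 6.9 and 6.8 at 24 h, and 9.8 at 48 h and 10.5 at 24 h in SHC002 cells. Only its 48 h and 72 h arrays labelled shMYCN lay above the filter value of 14.8. Its rise and the count of 3 are thus partly set by the filter. KCNMA1 was also below that value at 24 h, at 11.5 and 13.6.

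Of 25 histone genes 3 were higher (12%), H2AC6 (0.89), H2AC25 (0.77) and H2BC12 (0.65), members of a family with near-identical copies whose probe sets may share signal. Mitochondrial ribosomal proteins had 2 lower of 76 (2.63%, against 5.13% of all genes), and the TIMM and TOMM import genes 2 lower of 21 (9.52%). Of 362 ZNF genes 12 were higher (3.31%) and 7 lower (1.93%).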
